A study of Mus musculus with 16 samples.

Results

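Translation efficiency (TE) is the number of ribosome footprints on an mRNA relative to the amount of that mRNA. It was compared here between 2 tissues of the pain pathway without nerve injury, the lumbar dorsal root ganglion (DRG) and the dorsal part of the corresponding spinal cord. The genes compared were protein-coding genes that reached a fixed minimum of reads, summed over the 2 footprint libraries and over the 2 mRNA libraries, in each tissue. This rule kept 9741 of the 22040 protein-coding genes in the table, of which 18159 had any read in these libraries. The rule used read depth alone and no difference between the tissues. The footprint libraries set the limit: 10919 protein-coding genes reached the minimum in DRG footprints and 10480 in spinal cord footprints, against 12188 in DRG mRNA and 12635 in spinal cord mRNA.

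All animals were C57BL/6J female mice operated at 8 weeks of age, with tissue taken 30 days later. In the sham groups, DRG sham and spinal cord sham, the surgery was done but the sciatic nerve branches were not harmed. Each group had 2 lysates, and each lysate pooled tissue of 10 mice. The spared nerve injury (SNI) groups, DRG SNI and spinal cord SNI, came from other mice, with a bilateral injury, and served to repeat the comparison of tissues and to test whether it differed with the surgery. From every lysate came 1 library of poly(A) mRNA and 1 of ribosome footprints, so the sham comparison rests on 8 of the 16 libraries and 4 of the 8 lysates. Pools of whole tissue mix neurons, glia, vessel and blood cells, and in such samples fewer cells of a type and less RNA per cell cannot be told apart. A TE value is likewise a mean over all cells that hold the mRNA.

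The DRG holds the cell bodies of sensory neurons, wrapped by satellite glia, with Schwann cells along their axons. The dorsal spinal cord holds interneurons, projection neurons, astrocytes, oligodendrocytes and microglia. In neurons, long-lived proteins must be supplied to distant axons, and control of translation is a known layer of nociceptor plasticity. Known modes of such control include upstream reading frames in the 5′ leader, signaling through mTOR to terminal oligopyrimidine mRNAs, and repression of ferritin mRNA by iron-regulatory proteins.

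Reads in genes ranged between 7214309 and 27233473 over the 8 sham libraries, with footprint libraries the shallower ones. Most marker mRNAs followed the labelled tissues, and no marker was at 0. The mRNA of 30 sensory neuron markers summed to 11087 to 11101 CPM in DRG lysates and 1065 to 1081 CPM in spinal cord. CPM of marker sums is reads scaled to a common total of reads in genes. For single genes below, CPM also carries the TMM factors of the edgeR fit. Oligodendrocyte markers summed to 1781 to 1802 CPM in DRG and 20429 to 20513 CPM in spinal cord, and astrocyte markers to 2839 to 2851 CPM in DRG and 13050 to 13089 CPM in spinal cord. Of 19 Schwann cell and satellite glia markers, 14 were higher in both DRG lysates, although their sum was 9158 to 9205 CPM in DRG and 13178 to 13223 CPM in spinal cord. Skeletal muscle markers were present too, summing to 139 to 144 CPM in DRG and 95 to 97 CPM in spinal cord. Of these 25 markers, 17 were higher and 6 lower in both DRG lysates. Replicates were compared by a chi-square over genes per degree of freedom, where 1 is sampling noise alone. It was close to 1 for the 2 DRG mRNA libraries (1.05) and for spinal cord footprints (1.18). It was higher for spinal cord mRNA (1.59) and highest for DRG footprints (2.76). Each pair still differed by more than sampling noise, the closest, DRG mRNA, with a chi-square p = 1.2e-06, and was kept as 2 samples. Adjusted p-values are set against this small spread. The labels call the pools independent replicates, and the files cannot show whether so small a spread covers that between separate groups of mice.

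Sham DRG and spinal cord translated most mRNAs with a similar efficiency. Across the 9741 genes, the mean log2 TE of the DRG lysates correlated with that of the spinal cord lysates with a Pearson r of 0.917, against 0.983 between the 2 DRG lysates and 0.980 between the 2 spinal cord lysates. These are correlations across genes, which are not independent replicates. The TE difference, DRG over spinal cord, had a standard deviation over genes of 0.35 on the log2 scale, against 0.98 for the mRNA difference. From the 5th to the 95th percentile, the log2 TE difference ran over -0.45 to 0.63.

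Within this narrow range many differences exceeded the spread between lysates. TE was called higher in DRG for 3007 genes (30.9% of those tested) and lower for 1372 (14.1%), together 45% of genes, at an adjusted p under 0.05 by edgeR's quasi-likelihood test with Benjamini-Hochberg adjustment. Over 1.5-fold, 635 genes were called higher (6.52%) and 235 lower (2.41%). The balance of directions depended on the scaling. With TMM factors the median log2 TE difference over all genes was 0.09, and with library sizes alone it was -0.01, a shift of 0.11 that moved the calls to 2201 higher (22.6%) and 2477 lower (25.4%). Lower calls also outnumbered higher ones with DESeq2 (968 higher, 1119 lower), without DRG lysate 2 (1216 higher, 2321 lower) and without spinal cord lysate 1 (1434 higher, 2545 lower). Differences are therefore read against the median of all genes. With a fixed coefficient of variation of 0.1 between replicates in place of the measured one, 345 genes were called higher and 131 lower. All 1372 genes called lower and 2201 of those called higher under TMM kept the same call with library sizes alone, and none was called in opposite directions. The change of scaling moves all genes together by a shift of 0.11, which largely fixed this outcome in advance, so it is no separate support.

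**Figure D1:**
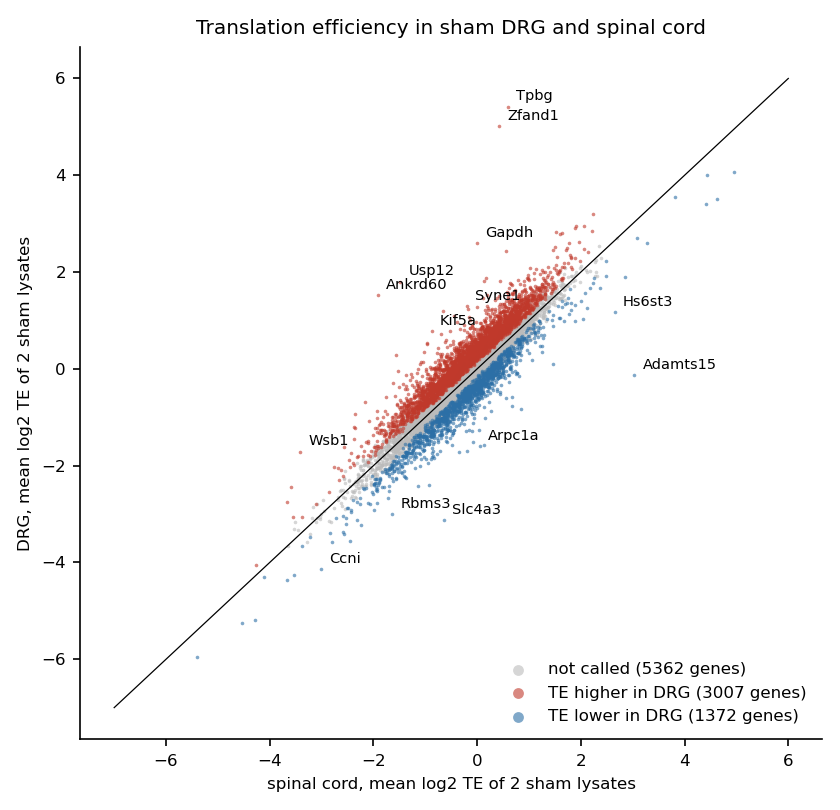
Mean log2 TE of the 2 sham DRG lysates (vertical axis) against the 2 sham spinal cord lysates (horizontal axis), 1 point per gene, with the line of equal TE. Most of the 9741 genes lie along the line (r of 0.917), and Tpbg, Zfand1, Ankrd60 and Usp12 above it and Adamts15 and Slc4a3 below it stand farthest off.

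The largest difference belonged to Tpbg (chr9:85842380-85847040, plus strand, GRCm38), which encodes a membrane glycoprotein. Tpbg had 1322 and 3269 footprint reads but only 89 and 79 mRNA reads in the DRG lysates, against 740 and 1083 footprint reads and 1790 and 1451 mRNA reads in the spinal cord lysates. Its log2 TE was 5.33 and 5.50 in DRG and 0.59 and 0.60 in spinal cord, a difference of 4.83 (SE 0.11). The log2 mRNA difference was -3.87, while the footprint difference was 0.98. An RNA on the opposite strand, 9330154J02Rik, overlaps its exons, and the study's methods describe the sequencing as not strand-specific, so where the genes overlap their reads cannot be told apart.

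Usp12, a deubiquitinase, had log2 TE values of 1.74 and 1.86 in DRG and -1.49 and -1.49 in spinal cord, a 9.83-fold difference. Ankrd60, an ankyrin repeat gene, reached 1.19 and 1.85 in DRG and -2.57 and -1.27 in spinal cord, so its replicates were more apart than those of its neighbours in this ranking. In both genes the tissues did not overlap, which the selection for this ranking required. Zfand1 had log2 TE values of 4.99 and 5.03 in DRG and 0.19 and 0.64 in spinal cord. Of the 30-base words in its coding sequence, 81.5% also occur in other genes, so its reads cannot be placed with certainty. The same holds for Gapdh, the glycolytic enzyme, with 100% of words shared, a log2 TE of 2.54 and 2.65 in DRG and of -0.04 and 0.02 in spinal cord, and only 434 and 370 mRNA reads in DRG.

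Among genes with unique coding sequence, Slit3, a secreted guidance cue of Robo receptors, differed by 1.89 (SE 0.19), and Gatm, the first enzyme of creatine synthesis, by 1.87 (SE 0.16). Slit3 had log2 TE values of 2.41 and 2.46 in DRG and 0.56 and 0.55 in spinal cord. Igsf10, Pstpip2 and Wsb1 followed with differences of 1.72, 1.71 and 1.70. Wsb1, a substrate adaptor of a ubiquitin ligase, had a log2 TE of -1.69 and -1.73 in DRG and -3.41 and -3.42 in spinal cord. Atp6v0c, the proteolipid subunit of the vacuolar proton pump, differed by 1.83, with 92.9% of its coding words shared with other genes.

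In the other direction, Adamts15, a secreted metalloprotease that cleaves proteoglycans, stood farthest out. It had 641 and 627 mRNA reads and 222 and 508 footprint reads in DRG, against 169 and 142 mRNA reads and 348 and 625 footprint reads in spinal cord. Its log2 TE was -0.08 and -0.16 in DRG and 2.90 and 3.15 in spinal cord, an 8.97-fold lower TE in DRG. Slc4a3, a chloride-bicarbonate exchanger, had a log2 TE of -3.39 and -2.87 in DRG and -0.70 and -0.59 in spinal cord. Its footprints were at 5.45 and 7.64 CPM in DRG and 90.0 and 92.1 CPM in spinal cord.

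Slc12a5, the potassium-chloride cotransporter that keeps neuronal chloride low, differed by -1.68 (SE 0.14), with a log2 TE of -0.75 and -0.89 in DRG and 0.83 and 0.84 in spinal cord. Scn2a, the sodium channel Nav1.2, differed by -1.64 (SE 0.13). Slc12a5 and Scn2a had mRNA differences of -5.95 and -2.20, and 18.4% of the coding words of Scn2a occur in other genes. The Slc12a5 value in DRG came from 258 and 213 mRNA reads, against 21140 and 17329 in spinal cord. Arpc1a encodes a subunit of the actin-nucleating Arp2/3 complex, and its mRNA was higher in DRG by 0.58, while its TE was lower by 1.62 (SE 0.07).

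**Figure D2:**
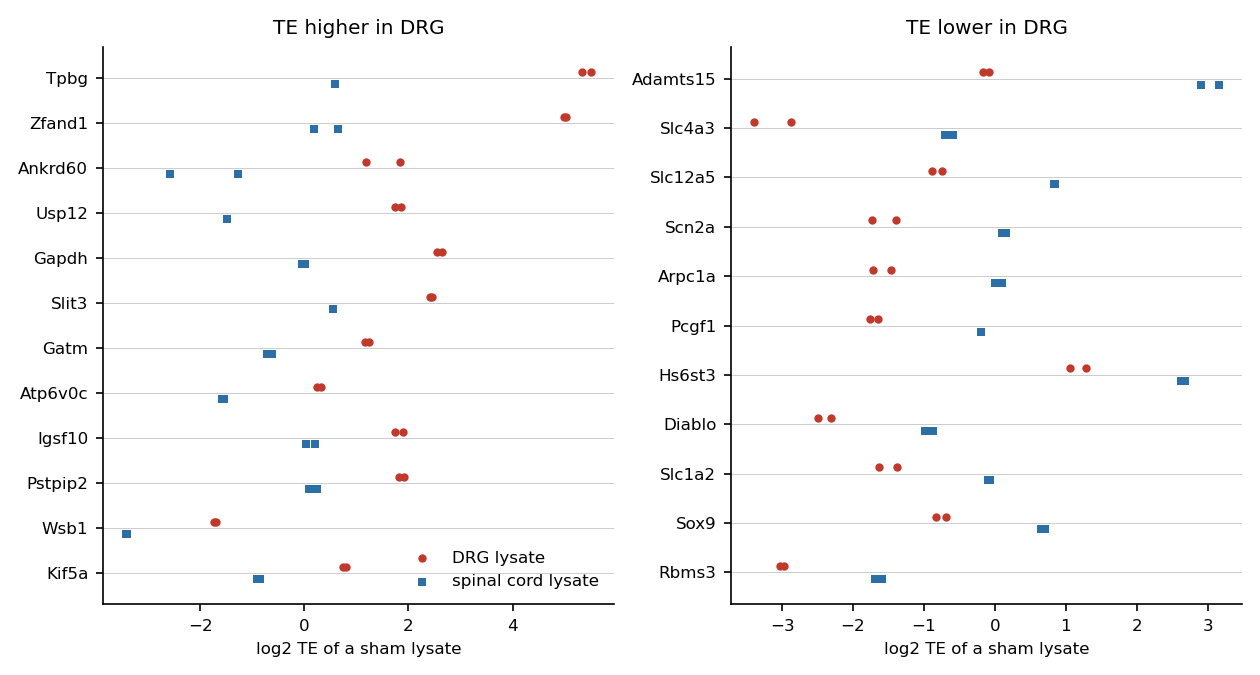
log2 TE of each sham lysate (horizontal axis) for genes among the 12 largest TE differences in each direction of those called with the tissues apart, DRG lysates as circles above spinal cord lysates as squares. The lysates of a tissue sit close together for most genes, with Ankrd60 in spinal cord (-2.57 and -1.27) the widest pair.

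Pcgf1, Hs6st3 and Diablo, a polycomb protein, a heparan sulfate sulfotransferase and a mitochondrial pro-apoptotic protein, had differences of -1.49, -1.47 and -1.46. Pcgf1 and Diablo share 53.9% and 95.6% of their coding words with other genes. Rbms3, an RNA-binding protein, differed by -1.36, with a log2 TE of -3.02 and -2.98 in DRG and -1.69 and -1.60 in spinal cord. Log2 TE of both DRG lysates lay above both spinal cord lysates in 4470 genes (45.9%) and below both in 2484 genes (25.5%), so non-overlap of lysates by itself is common in these data.

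Some genes had nearly equal mRNA in both tissues, within a fixed narrow limit, and still differed in TE. Syne1, nesprin-1, which links the nucleus to the cytoskeleton, was 2.83-fold higher in TE in DRG (adjusted p = 1.49e-134, edgeR's quasi-likelihood test), with a log2 TE of 1.22 and 1.38 in DRG and -0.27 and -0.14 in spinal cord. Kctd9, Zfyve16, Ppp4r1 and Ap4e1, the last a subunit of the AP-4 sorting adaptor, differed by 1.43, 1.30, 1.28 and 1.22. In these 5 genes the footprint difference was 1.09 to 1.48.

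The lower group was led by Nos1, the neuronal nitric oxide synthase, whose mRNA was at 72.8 and 70.1 CPM in DRG and 74.9 and 67.7 CPM in spinal cord. Its footprints stood at 32.4 and 27.1 CPM in DRG and 67.1 and 61.3 CPM in spinal cord, a TE difference of -1.14 (SE 0.10). Ccni, Mllt6 and Sobp followed with -1.06, -1.06 and -1.02. Ap3b1, a subunit of the AP-3 adaptor, and Polr3gl, a subunit of RNA polymerase III, had -0.94 and -0.93. Ccni shares 66% of its coding words with other genes.

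TE contains the mRNA count as its denominator, so a TE difference and the mRNA difference of the same libraries are not independent. Taking calls of both, 2133 genes (21.9%) differed in opposite directions and 1589 (16.3%) in the same direction. The mRNA difference itself was called higher in DRG for 38.8% of genes and lower for 44.1%. Footprints were called higher in DRG for 42.9% of genes and lower for 35.7%. Among the opposite genes, 714 had no call in footprints, and 422 genes had footprints called opposite to their mRNA. Ryr3, an intracellular calcium release channel, had a TE difference of 1.52, an mRNA difference of -1.51 and a footprint difference of 0.01. Hist1h1c, a linker histone, and Ttn, the giant muscle protein, had TE differences of -1.35 and -1.23 beside mRNA differences of 2.07 and 2.46, and 29.2% of the coding words of Hist1h1c occur in other genes. Set against the mRNA difference measured in the SNI pools, which share no library with the sham TE values, the TE difference had a Pearson r of -0.003 and a Spearman rho of -0.05 across the 9741 genes. In the 304 genes whose SNI mRNA was at least 4 times lower in DRG, the median TE difference was -0.07, with 13.5% called higher and 29.3% lower in TE.

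TE differences followed the length of the coding sequence. In 5 equal classes of genes by coding length, with median lengths of 570, 1023, 1479, 2157 and 3768 nucleotides, the median log2 TE difference was -0.06, 0.05, 0.12, 0.17 and 0.19. Calls of higher TE in DRG made up 15.1% of the shortest class and 44.6% of the longest, and calls of lower TE 26.9% and 9.14%. With library sizes alone, higher calls were 10.1% of the shortest class and 35.1% of the longest. Across genes, Spearman's rho of coding length with the TE difference was 0.27 over 9735 genes with a gene model. In the SNI pools the classes had medians of -0.09, 0.03, 0.09, 0.15 and 0.19. Every pairing of a sham DRG lysate with a sham spinal cord lysate gave a longest class above the shortest, by 0.23 to 0.29. Within each of 5 classes of mRNA level the longest coding sequences also had a higher median difference than the shortest.

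**Figure D3:**
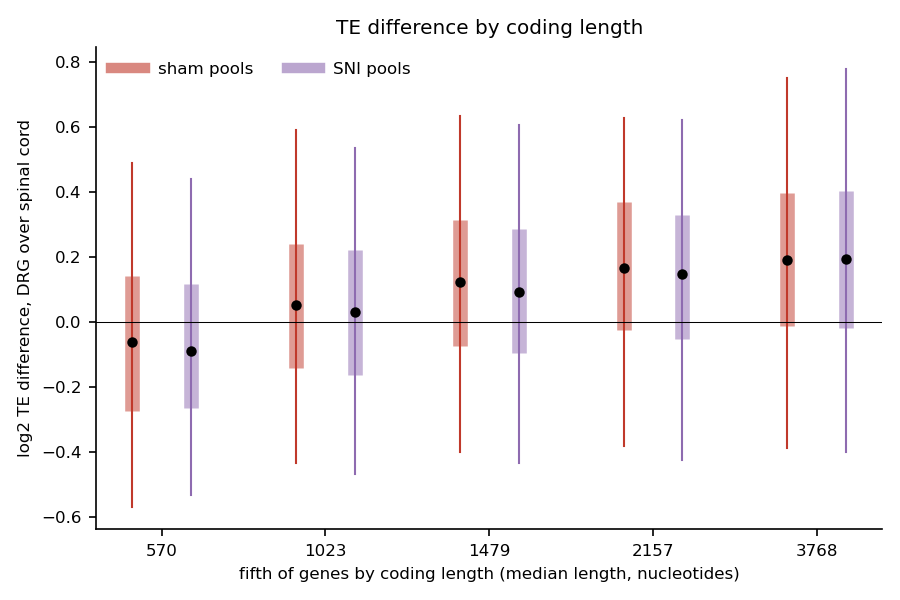
log2 TE difference, DRG over spinal cord (vertical axis), in 5 equal classes of genes by coding length (horizontal axis, median nucleotides), sham pools left and SNI pools right of each pair. Points are medians, wide bars the middle 50 percent and lines the 5th to 95th percentile of genes; sham medians run over -0.06 to 0.19.

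Footprints fall on coding sequence while mRNA reads cover the whole transcript, so levels of TE are not comparable between genes of different untranslated length. With that limit, median log2 TE ran over -0.50, -0.19, 0.01, 0.08 and 0.26 from the shortest to the longest class in DRG, and over -0.44, -0.25, -0.15, -0.10 and 0.07 in spinal cord. By Spearman's rho, other features separated the tissues less in the sham pools, with -0.12 for GC content at the third codon position and -0.11 for mRNA level. In the SNI pools rho was -0.27 for this GC content, beside 0.29 for coding length. From the lowest to the highest of 5 classes of mRNA level, the sham median fell from 0.13 to 0.02. Lower calls rose from 6.05% to 26.7% over these classes, and higher calls from 23.2% to 33.5%. By the length of the 3′ untranslated region, medians of the TE difference stayed between 0.06 and 0.12, although the level of TE itself was -0.47 in DRG and -0.56 in spinal cord in the class with the longest regions. By GC content at the third codon position, medians were 0.14 in the lowest and 0.03 in the highest class in sham pools, and 0.19 and -0.05 in SNI pools.

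Genes of known classes were then read against these medians. Each class list is described by how many of its tested genes were called in each direction, beside 30.9% higher and 14.1% lower for all genes, and by its median beside 0.09 for all genes. With library sizes alone the shares of all genes were 22.6% higher and 25.4% lower, and their median was -0.01. Without DRG lysate 2 or spinal cord lysate 1 the median of all genes was -0.08 and -0.06. List counts under these settings move in part with all genes and are to be read beside these values. The lists were chosen with results of these data known and give no independent evidence of direction. Lists also differ in coding length, left unadjusted. The length classes of mTOR, MNK and ERK genes have medians that average 0.12, beside a list median of 0.18. For lysosomal and for cholesterol and fatty acid synthesis genes these averages are 0.10 and 0.09, beside 0.15 and 0.16. For sodium and calcium channel and for collagen and matrix genes they are 0.14 and 0.16, beside 0.01 and 0.09. For astrocyte and neuropeptide genes they are 0.09 and 0.04, beside -0.42 and -0.29.

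Genes of the axonal cytoskeleton were called in both directions. Of 31 tested genes for tubulin, microtubule and axon growth, 15 were called higher and 12 lower, with a median of 0.15, while library sizes alone gave 13 in each direction and the fit without DRG lysate 2 gave 9 higher and 14 lower. The kinesin-1 heavy chains, which carry cargo toward axon ends, all had higher TE in DRG: Kif5a by 1.65 (SE 0.06), Kif5b by 1.18 (SE 0.06) and Kif5c by 0.62 (SE 0.06). Kif5a, the neuronal form, had a log2 TE of 0.75 and 0.80 in DRG and -0.86 and -0.90 in spinal cord. It drew 12852 and 29943 footprint reads in DRG and 5749 and 8489 in spinal cord, so its counting error is small. Kif5b had a log2 TE of 0.34 and 0.50 in DRG and -0.75 and -0.75 in spinal cord, with RNAs on the opposite strand across its exons. Kif5c had -0.05 and 0.04 in DRG and -0.63 and -0.62 in spinal cord, with an mRNA difference of 0.01. Dync1h1, the heavy chain of dynein, which moves cargo back to the cell body, differed by 0.59.

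Other cytoskeletal genes were lower. Stmn3, a tubulin-binding stathmin, had a log2 TE of -0.55 and -0.51 in DRG and 0.45 and 0.42 in spinal cord, a difference of -0.97 (SE 0.06). Marcks, a membrane-bound actin regulator, and Dpysl2, a collapsin response mediator, differed by -0.82 and -0.80. The mRNA of Stmn3 was higher in DRG by 0.94, that of Marcks by 0.03.

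Among subunits of oxidative phosphorylation encoded in the nucleus, lower TE in DRG was the more frequent call. Of 69 tested genes, 37 were called lower and 10 higher, with a median of -0.21, and 31 of them share over 10% of their coding words with other genes. With library sizes alone, 50 were lower and 6 higher. Leaving out each lysate in turn gave 37 to 49 lower and 4 to 11 higher. By complex, 8 of 9 cytochrome oxidase (complex IV) subunits were lower and none higher, and 19 of 35 complex I subunits were lower and 2 higher. The others were closer to balance, with 5 of 9 complex III subunits lower and 3 higher, 1 of 4 complex II subunits in each direction, and 4 of 12 ATP synthase subunits in each direction (median -0.03). Cox5a, with 25.5% of its words shared, had a log2 TE of -0.49 and -0.39 in DRG and 0.33 and 0.30 in spinal cord, a difference of -0.74 (SE 0.06). Further down the ranking, Cox6b1, Ndufa4 and Cox4i1 had -0.56, -0.43 and -0.36, while the mRNA of Cox4i1 differed by 0.01. The catalytic and core subunits Atp5c1, Uqcrc1 and Ndufs3 were higher in DRG, by 0.73, 0.69 and 0.77. Ndufs3 shares 67.1% of its coding words with other genes, and its call did not hold with DESeq2 (adjusted p = 0.118) or when DRG lysate 2 was left out (0.35). The list holds short genes, with a median coding length of 438 nucleotides, and the length classes its genes fall in have medians that average -0.03.

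Genes of the mitochondrial genome, read by ribosomes inside mitochondria, numbered 7, with 2 called higher and 5 lower. Among them, mt-Co1 differed by 0.91, with 64.8% of its coding words shared, and mt-Nd1 by -0.73. Glycolysis and pyruvate genes had 11 of 18 higher and 3 lower, median 0.20, with library sizes alone 8 higher and 5 lower and without DRG lysate 2 or spinal cord lysate 1 6 higher and 5 lower; 9 of the 18 share over 10% of their coding words with other genes.

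Astrocyte genes had the lowest median of the larger lists. Of 15 tested, 13 were called lower and none higher, with a median of -0.42; with library sizes alone all 15 were lower. Slc1a2, the main glutamate transporter of astrocytes, had 55.1 and 50.5 mRNA CPM in DRG, against 3104 and 2970 CPM in spinal cord. Its log2 TE was -1.38 and -1.64 in DRG and -0.10 and -0.07 in spinal cord. Gfap, the intermediate filament of astrocytes, had 15.6 and 13.2 mRNA CPM in DRG and 896 and 911 CPM in spinal cord, with a log2 TE of -1.40 and -1.11 in DRG and 0.06 and 0.02 in spinal cord. Sox9, a glial transcription factor, differed by -1.42, and the water channel Aqp4 by -0.48. The DRG values of Gfap rest on 42 and 102 footprint reads. Glul, glutamine synthetase, which satellite glia of the DRG also express, differed by -0.18, with 54.6% of its words shared. The list as a whole was also lower in DRG mRNA, with a median of -2.96, and the part of this low level in the TE difference was not tested.

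Other glial lists held fewer calls. Of 12 oligodendrocyte genes, 4 were lower and 2 higher, with Mag, a myelin-associated glycoprotein, at -0.89 and Cnp at -0.28. Of 17 Schwann cell and satellite glia genes, 7 were lower and 2 higher, with a median of 0.02. Microglia and macrophage genes had 2 lower and 1 higher of 15. Leaving out each lysate gave 4 to 7 lower and 0 to 2 higher oligodendrocyte genes, 6 to 9 lower and 1 to 3 higher Schwann cell and satellite glia genes, and 2 to 4 lower and 0 to 3 higher microglia and macrophage genes, the last with more higher than lower without DRG lysate 1 (3 and 2).

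**Figure D4:**
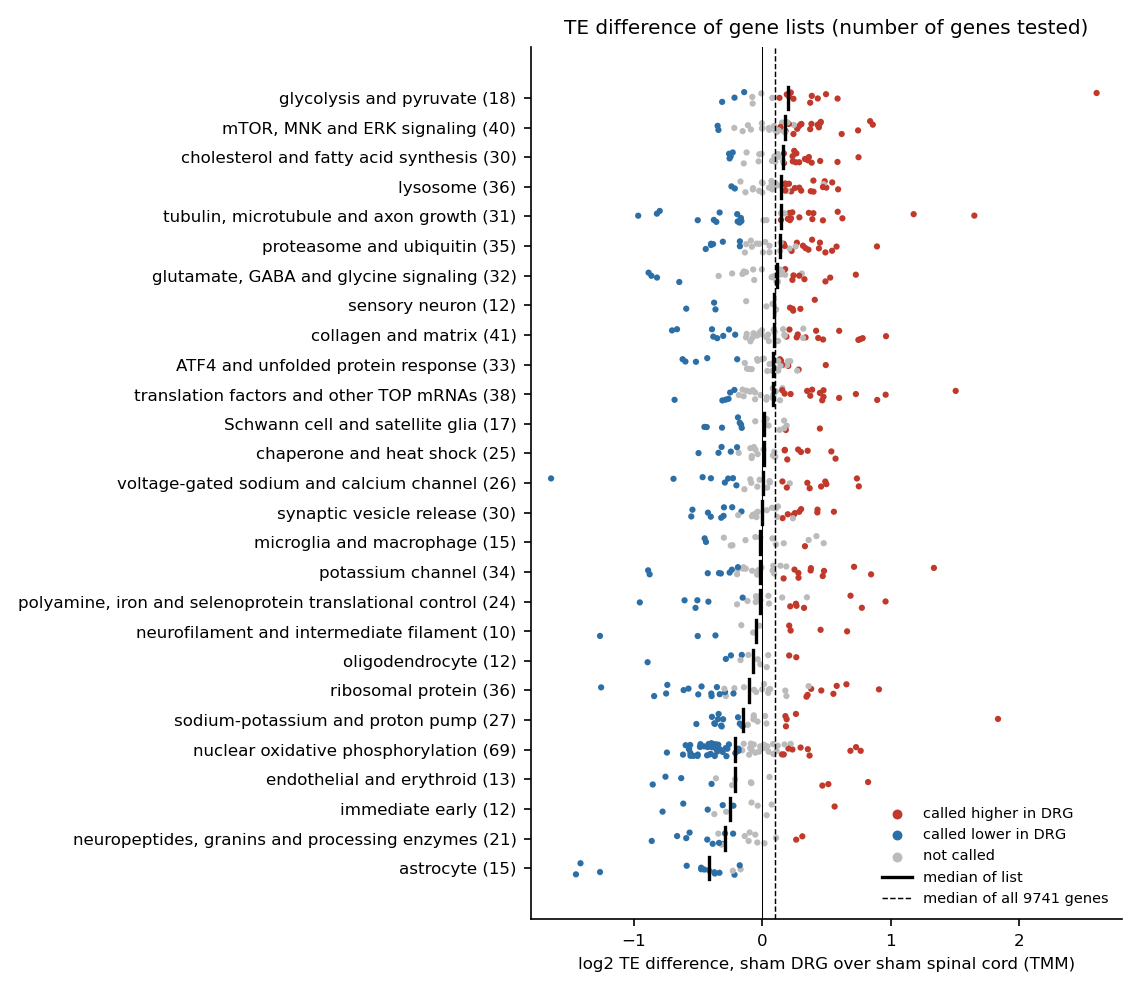
log2 TE difference, sham DRG over sham spinal cord with TMM factors (horizontal axis), of each tested gene in the lists with at least 10 tested genes, sorted by median. Black bars are list medians and the dashed line is the median of all 9741 genes, 0.09; astrocyte genes (-0.42) and neuropeptide genes (-0.29) lie lowest.

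Neuropeptide genes called lower in TE included some with more and some with less mRNA in DRG. Of 21 tested genes for neuropeptides, granins and their processing enzymes, 10 were called lower and 2 higher, with a median of -0.29; library sizes alone gave 17 lower and 2 higher, and leaving out each lysate 9 to 17 lower and 1 to 3 higher. Penk, the enkephalin precursor, and Sst, somatostatin, both less abundant in DRG mRNA, differed by -0.86 and -0.66. Calca, the CGRP precursor of nociceptors, had an mRNA difference of 5.90 and a TE difference of -0.59 (SE 0.09), with a log2 TE of -0.40 and -0.33 in DRG and 0.25 and 0.21 in spinal cord. Tac1, the substance P precursor, differed by -0.39. The 2 genes called higher, named after their values were seen, were the processing enzymes Pcsk1 and Pcsk2, at 0.26 and 0.31. The Pcsk1 difference was not called by DESeq2, and was 0.09 without DRG lysate 2 and 0.06 without spinal cord lysate 1, uncalled in both. Chga, a granin, gave -0.06 and no call (adjusted p = 0.459, edgeR), but was called lower with library sizes alone (-0.16).

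In the list for glutamate, GABA and glycine signaling, 8 of 32 genes were called higher and 4 lower, with library sizes alone 5 higher and 9 lower, without DRG lysate 2 2 higher and 8 lower, and without spinal cord lysate 1 3 higher and 12 lower. The plasma membrane carriers Slc6a9 for glycine and Slc6a11 for GABA differed by -0.89 and -0.86, beside log2 mRNA differences of -5.05 and -5.19. Slc6a9 had a log2 TE of 0.08 and -0.24 in DRG and 0.76 and 0.78 in spinal cord. Gabbr1, a subunit of the metabotropic GABA receptor, was higher by 0.73, with a log2 TE of 0.35 and 0.41 in DRG and -0.35 and -0.34 in spinal cord.

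Ion channels held differences in both directions. Potassium channel genes had 11 higher and 8 lower of 34, and sodium and calcium channel genes 9 higher and 8 lower of 26. With library sizes alone, 8 potassium channel genes were higher and 14 lower, and 7 and 11 sodium and calcium channel genes. All genes turned there too, with 22.6% higher and 25.4% lower. Channels and all genes also turned without DRG lysate 2 or spinal cord lysate 1. The list median minus that of all genes ran over -0.14 to -0.06 for potassium channels in 18 settings. For sodium and calcium channels it ran over -0.13 to -0.07. The KChIP proteins, calcium-binding partners of Kv4 channels, diverged: Kcnip2 was higher by 1.34 (SE 0.13) and Kcnip1 by 0.85 (SE 0.10), while Kcnip3 was lower by 0.88 (SE 0.08). Kcnip2 had a log2 TE of -0.38 and -0.22 in DRG and -1.63 and -1.61 in spinal cord, and Kcnip3 of -1.15 and -1.12 in DRG and -0.29 and -0.22 in spinal cord. Kcnc2, the Kv3.2 channel, had a difference of -0.89. The T-type calcium channel Cacna1h and the beta subunit Cacnb3 were higher by 0.75 and 0.74, and the auxiliary subunit Cacna2d2 was lower by 0.69.

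Signaling through mTOR, MNK and ERK acts in part on initiation through eIF4E and its partners, but not every gene of this list acts there. Of 40 tested, 19 were called higher and 2 lower, with a median of 0.18; with library sizes alone, 14 were higher and 7 lower and the median was 0.07, and leaving out each lysate in turn gave 8 to 24 higher and 2 to 8 lower. Mtor itself had a log2 TE of 1.87 and 2.04 in DRG and 1.22 and 1.20 in spinal cord, a difference of 0.75 (SE 0.07). Cyfip2, a partner of the fragile X protein, differed by 0.86, Prkaa2, the catalytic alpha2 subunit of AMPK, by 0.84, and Mknk1, a kinase of eIF4E, by 0.62. The mTOR regulators Tsc2 and Rictor were higher by 0.44 and 0.37, where Rictor was not called by DESeq2, nor without DRG lysate 2 (0.20) or spinal cord lysate 1 (0.18). Eif4e, the cap-binding protein, differed by -0.15 with no call (adjusted p = 0.393, edgeR), and 78.9% of its coding words occur in other genes.

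Of 38 tested translation factors and other terminal oligopyrimidine mRNAs, 23 share over 10% of their coding words. These 38 genes had 15 higher and 6 lower calls, with a median of 0.08. With library sizes alone they had 13 in each direction, without DRG lysate 2 10 higher and 12 lower, and without spinal cord lysate 1 12 higher and 11 lower. Eef2, an elongation factor, was higher by 0.60, with 28.6% of its words shared. Eif2s1, the alpha subunit of eIF2, and Tpt1, listed among the other mRNAs, were higher by 0.96 and 1.51. Their coding words were shared to 58.3% and 100%. Of 78 ribosomal protein genes only 36 reached the read minimum, and 35 of those share over 10% of their coding words, so their 8 higher and 14 lower calls, from Rplp1 at -1.26 to Rpl6 at 0.91, are uncertain.

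Some stress genes are known to be translated through upstream reading frames. The list of ATF4 and unfolded protein response genes had 7 higher and 5 lower of 33, median 0.08, and 1 higher and 11 lower with library sizes alone. It had 1 higher and 10 lower without DRG lysate 2, none higher and 12 lower without spinal cord lysate 1, and 3 higher and 7 lower without spinal cord lysate 2. The lower genes included Atf5, Ppp1r15b, Atf4 and Ddit3, at -0.62, -0.60, -0.52 and -0.43, where Atf4 and Atf5 are transcription factors of the integrated stress response, Ppp1r15b targets the eIF2 phosphatase and Ddit3 encodes CHOP. Atf4 had a log2 TE of -2.02 and -1.98 in DRG and -1.47 and -1.49 in spinal cord, Ppp1r15b of -1.31 and -1.29 in DRG and -0.62 and -0.77 in spinal cord. Ddit3 had 74 and 159 footprint reads in DRG and was not called by DESeq2 (adjusted p = 0.144) or with DRG lysate 2 left out (adjusted p = 0.0582, edgeR). Upstream starts of these leaders are shown because counts per gene do not separate footprints on them from those on the coding sequence. The first 2 lines are the frames of 3 and 59 codons in Atf4 (chr15:80255570-80255596 and chr15:80255669-80255685, plus strand), the next 2 those of 3 and 58 codons in Atf5 (chr7:44816523-44816549 and chr7:44816402-44816418, minus strand). They are followed by the frame of 34 codons in Ddit3 (chr10:127290817-127290843, plus strand) and that of 51 codons in Ppp1r15b (chr1:133131505-133131531, plus strand). The leaders also hold starts, not printed, of a frame of 36 codons in Atf4, of 31 codons in Ddit3, and of 2 and 8 codons in Ppp1r15b. Sequences are from GENCODE M21 on GRCm38, with the ATG in capitals and up to 12 bases on each side within its exon.
Atf4 short frame: cttgcggccaccATGgcgtattagagg
Atf4 overlapping frame: ccggcctaagccATGgc
Atf5 short frame: tccgcccgcgcaATGgctctgtagccg
Atf5 overlapping frame: cttttcgccgccATGga
Ddit3 frame: gtcgattatatcATGttgaagatgagc
Ppp1r15b frame: tccctagccgggATGgacctaaccgcg

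The longer Atf4 and Atf5 frames run into the coding sequence, a layout shared by 15.9% of the 9316 genes with an annotated leader. An upstream ATG by itself set no direction: 4945 genes (53.1%) had one or more, and their median TE difference was 0.10, against 0.09 for the 4371 genes with none. Genes with a frame that runs into the coding sequence had a median of 0.10.

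Selenoproteins, whose mRNAs recode a UGA stop codon as selenocysteine, made up the 6 lower calls of the list for polyamine, iron and selenoprotein control, in which 7 of 24 genes were higher. The list holds 11 tested selenoproteins, of which Selenom, Sephs2, Selenof and Selenot had no call, between -0.12 and 0.05. Of all 17 selenoproteins tested, in the list or not, 8 were lower and 2 higher, with a median of -0.12. Without DRG lysate 2 the list had 2 higher and 11 lower, without spinal cord lysate 1 3 higher and 10 lower, and with library sizes alone 5 higher and 10 lower. The 6 selenoproteins called lower with TMM factors were Selenow, Gpx1, Gpx4, Selenos, Gpx3 and Selenop, at -0.95, -0.61, -0.52, -0.51, -0.42 and -0.15. Selenow had a log2 TE of -2.66 and -2.69 in DRG and -1.73 and -1.72 in spinal cord, beside an mRNA difference of 1.48. Gpx4 shares 83.4% of its coding words with other genes. Another selenoprotein, Txnrd1, was higher by 0.27, a difference DESeq2 did not call and that was 0.09 without DRG lysate 2 and 0.14 without spinal cord lysate 1. This grouping was seen after the values. Fth1, the ferritin heavy chain, whose translation is repressed through an iron-responsive element when iron is scarce, was higher by 0.96 (SE 0.06). It had a log2 TE of -1.65 and -1.59 in DRG and -2.52 and -2.63 in spinal cord, with 23.5% of its coding words shared.

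Lysosomal genes had 16 of 36 higher and 2 lower, median 0.15, with Man2b1, an alpha-mannosidase, at 0.54 and Lipa, the acid lipase, at 0.50. Cholesterol and fatty acid synthesis genes had 15 of 30 higher and 4 lower, median 0.16, led by Fasn, fatty acid synthase, at 0.75 (SE 0.06), with a log2 TE of 2.43 and 2.49 in DRG and 1.69 and 1.73 in spinal cord. With library sizes alone the medians were 0.04 and 0.05, against -0.01 for all genes, with 11 higher and 7 lower lysosomal genes and 11 higher and 6 lower synthesis genes. Without DRG lysate 2 the counts were 4 higher and 6 lower lysosomal genes and 6 synthesis genes in each direction, and without spinal cord lysate 1 they were 7 and 6, and 9 and 7. Collagen and matrix genes had 13 of 41 higher and 8 lower, but 9 higher and 12 lower with library sizes alone, 7 and 12 without DRG lysate 2, and 5 and 12 without spinal cord lysate 1. The basement membrane chains Col4a1 and Col4a2, which lie head to head, were higher by 0.96 and 0.78. Subunits and Fxyd partners of the sodium-potassium, proton and calcium pumps had 14 of 27 lower and 5 higher, median -0.15. With library sizes alone 19 were lower and 4 higher. The list median minus that of all genes ran over -0.27 to -0.23 in 18 settings, those with a lysate left out included. Synaptic vesicle genes had 9 higher and 9 lower of 30 (7 and 14 with library sizes alone, 5 and 14 without DRG lysate 2 or spinal cord lysate 1), with Rab3a, a vesicle GTPase, at 0.56 and Cplx2, a complexin, at -0.55. Immediate early genes had 5 of 12 lower and 1 higher, Egr1 at -0.78 and Nr4a1 at 0.56. The Nr4a1 difference was not called by DESeq2, nor when DRG lysate 2 (0.27) or spinal cord lysate 1 (0.30) was left out. The 8 histone genes with enough reads, chosen after their values were seen, had 7 lower and none higher, with a median of -0.83. Many histone mRNAs lack a poly(A) tail, and the mRNA libraries were made from poly(A) RNA.

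The difference between the tissues recurred in the SNI pools, which share no sample with the sham pools but differ by surgery. Of 9402 genes with enough reads there too, the SNI comparison called 3158 higher (33.6%) and 1739 lower (18.5%). Of 2944 sham calls of higher TE, 2389 (81.1%) were called higher again and 2 lower; of 1347 sham calls of lower TE, 1083 (80.4%) were called lower again and 4 higher. Above 1.5-fold, 573 of 607 and 209 of 222 were called again. Across genes, the sham and SNI differences correlated with r of 0.87 and rho of 0.848. Tpbg had a log2 TE of 5.16 and 5.32 in SNI DRG and 0.75 and 0.88 in SNI spinal cord. Kif5a had 0.71 and 0.69 in SNI DRG and -0.88 and -0.90 in SNI spinal cord, and Adamts15 -0.23 and -0.27 in SNI DRG and 3.33 and 3.02 in SNI spinal cord. Zfand1 did not recur: its log2 TE was 3.42 and 3.27 in SNI DRG and 2.81 and 3.43 in SNI spinal cord, where the tissues overlap. Slc12a5, Igsf10, Pcgf1, Kcnip2 and Ttn were not compared there, being under the read minimum.

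**Figure D5:**
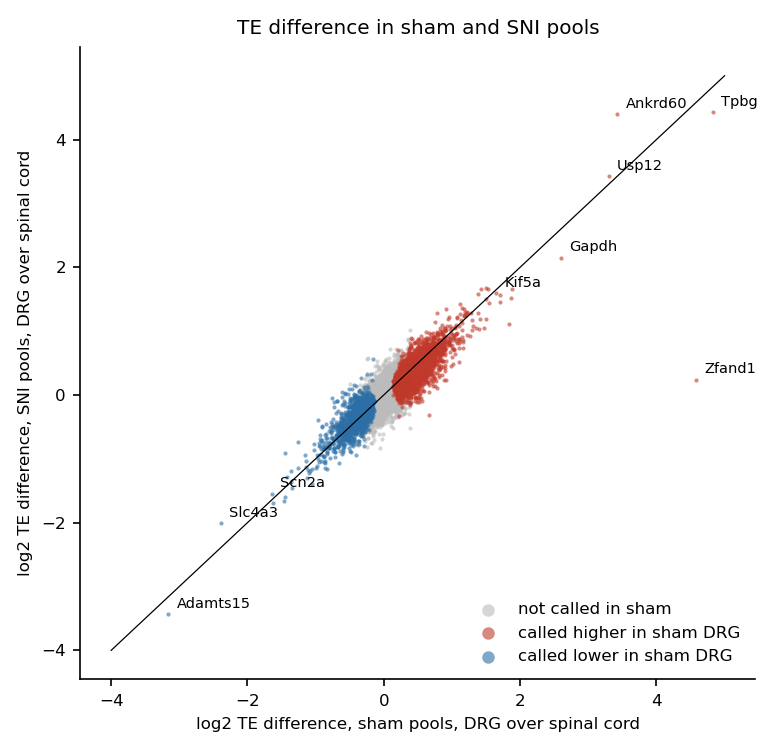
log2 TE difference, DRG over spinal cord, in SNI pools (vertical axis) against sham pools (horizontal axis) for 9402 genes, with the line of equal difference. Points follow the line (r of 0.87), while Zfand1, at 4.57 in sham and 0.24 in SNI, lies far from it.

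For whole lists the SNI pools gave 39 of 69 oxidative phosphorylation genes lower and 13 higher, 13 of 15 astrocyte genes lower and none higher, and 11 of 20 neuropeptide genes lower and 3 higher. Of 39 mTOR, MNK and ERK genes, 18 were higher and 3 lower. Of 7 genes of the mitochondrial genome, 4 were higher and 1 lower in SNI pools, beside 2 higher and 5 lower in sham pools. The share of called list members called again in the same direction varied between lists, with 44 of 47 for oxidative phosphorylation and 26 of 27 for tubulin, microtubule and axon growth, but 4 of 6 for oligodendrocyte and for immediate early genes and 3 of 7 for the mitochondrial genome.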

How the data were processed

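Per the labels and the study's methods, the authors removed reads of abundant noncoding RNA with Bowtie 1.1.2, aligned with STAR 2.5.2b to GRCm38.p5 and made the deposited read counts per gene with HTSeq (version and strand setting not given in the sources used here; the methods describe the sequencing as not strand-specific). Deposited RPKM and TE columns were not used. Here edgeR 4.0.16 (R 4.3.3) fitted lysate terms, assay and assay by tissue over the 8 sham libraries, with TMM factors within each assay on library sizes from column sums. SE is the size of the log2 difference divided by the root of the F statistic. Genes needed 128 reads over the 2 footprint and over the 2 mRNA libraries of each tissue. Log2 TE per lysate had 0.5 reads added to each count. The labels call the pools independent replicates; p-values measure the spread between these pools, which may in part be technical. Alternatives included DESeq2 1.42.0 (no independent filtering), limma 3.58.1, other scalings and filters, and each lysate left out; a fixed coefficient of variation of 0.1 and removal of shared-sequence genes were added after seeing the data. The sham TE fit was also run on simulated counts with a replicate spread like the measured one. That run cannot show whether this spread covers the one between separate groups of mice.

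Coding lengths, leaders and shared 30-base words came from GENCODE M21 transcripts (9735 of 9741 genes matched), 1 transcript per gene. The 31 gene lists and the genes compared were chosen with earlier results of these data known. Genes named in the text came from the 12 largest TE differences per direction among calls with lysates apart, up to 4 called members of a list with members of known role, and 6 per direction each with mRNA within 1.25-fold or with opposite mRNA and TE calls. Names outside this rule were chosen after their values were seen. A few genes that meet the rule are not reported here.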

Additional observations from a re-analysis of the deposited data

Results flagged for a closer look

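The TE difference between DRG and spinal cord was compared between sham and SNI pools in 1 edgeR fit over the 16 libraries, as the interaction of surgery, tissue and assay. Of 9402 genes, 26 (0.277%) had a more positive difference in sham pools and 93 (0.989%) a more negative one at an adjusted p under 0.05. Of the genes named in the text, 12 were among them. Values are the sham difference minus the SNI difference on the log2 scale, with edgeR's adjusted p.

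Zfand1 differed by 4.299 (SE 0.211, adjusted p = 3.62e-29), with 4.57 in sham and 0.24 in SNI pools. Ankrd60 differed by -1.001 (adjusted p = 0.0162), with 3.43 in sham and 4.40 in SNI pools. Atp6v0c gave 0.6747 (adjusted p = 0.00525) and Gapdh 0.4117 (adjusted p = 0.023), both with coding words shared with other genes.

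Of mitochondrial genes, mt-Nd1 gave -0.6728 (adjusted p = 1.49e-09) and mt-Co1 -0.4845 (adjusted p = 5.96e-07). Of nuclear oxidative phosphorylation genes, Cox5a gave -0.2349 (adjusted p = 0.00446) and Cox4i1 -0.1607 (adjusted p = 0.0458), lower in DRG in both kinds of pools.

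Bdnf, a neurotrophin of nociceptors, gave -0.6417 (adjusted p = 0.0234), with a log2 TE difference of -0.57 in sham and 0.03 in SNI pools. Slc1a2 gave -0.6005 (adjusted p = 0.000279), with -1.45 in sham and -0.90 in SNI pools. Kif5b gave -0.1975 (adjusted p = 0.0178) and Cyfip2 -0.1689 (adjusted p = 0.0317), both higher in DRG in either kind of pools.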

How the results depend on the processing

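DESeq2 called 968 genes higher and 1119 lower in DRG, 1581 sham calls repeated in SNI pools and 1018 opposite calls of TE and mRNA, against 3007, 1372, 3472 and 2133. The test against a 1.5-fold change left 142 higher, 52 lower and 131 repeated, and a fixed coefficient of variation of 0.1 left 345 higher and 131 lower. Library sizes alone gave 2477 lower. Leaving out each lysate gave 1216 to 3306 higher, 1162 to 2545 lower, 2505 to 3513 repeated and 1757 to 2201 opposite. The share of calls that were higher, 68.7%, became 47.1% with library sizes alone, 46.4% with DESeq2, 34.4% without DRG lysate 2 (1216 higher, 2321 lower) and 36% without spinal cord lysate 1 (1434 higher, 2545 lower), where the median difference of all genes was -0.08 and -0.06. A change of scaling is a constant per library and moves all genes together, whereas leaving out a lysate also moved lists against all genes, as for the mitochondrial genome (median minus that of all genes -0.44 without DRG lysate 2 and -0.53 without spinal cord lysate 1, against -0.35); 96.9% of calls kept their sign without DRG lysate 2 and 98.1% without spinal cord lysate 1. Other counts stayed within 1.5 times.

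Replicate numbers marked no stated pairing, and deviations of same-numbered lysates had a correlation of 0.008 in log2 TE; with the replicate block, 3065 genes were higher and 1428 lower. Of 108 named genes, 1667 of 1775 values under the alternatives kept direction and side of the threshold, 104 lost the call, mostly in the 1.5-fold test and with the fixed coefficient of variation, and 4, all of Chga, gained one. List medians relative to all genes kept their sign in 18 settings for oxidative phosphorylation (-0.37 to -0.29), astrocyte (-0.54 to -0.46), neuropeptide (-0.40 to -0.29) and mTOR, MNK and ERK genes (0.08 to 0.10). Most other lists kept theirs too, for example potassium channel (-0.14 to -0.06), synaptic vesicle (-0.12 to -0.05) and pump genes (-0.27 to -0.23). The settings reuse the same sham libraries, so a kept sign does not set a list apart. With 2 pools per tissue, and footprint reads as few as 39 in 1 library for a named gene (Slc4a3), small differences are not resolved.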
